A study of Mus musculus with 6 samples.

Results

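The 32 protein-coding mouse genes for voltage-gated sodium and calcium channels were examined in newborn hippocampus with normal and with reduced Mov10, an RNA helicase. They were taken by gene symbol from 52230 annotated genes in the files: 14 sodium channel genes (10 for α subunits, 4 for β subunits) and 18 calcium channel genes (10 for α1, 4 for α2δ and 4 for β subunits). Messenger RNA was sequenced from 3 Mov10 Deletion and 3 WT libraries of postnatal day 0 (P0) pups, and each library pooled hippocampi of at least 2 pups. Mov10 Deletion animals carried a floxed Mov10 allele together with a germline mutant Mov10 allele. The floxed allele was targeted by Cre under Emx1, which is active in the excitatory neuron lineage of cortex and hippocampus. WT animals were C57BL/6. The paper describes the depletion as one of excitatory neurons, and Cre activity in other cells was not tested here. The germline mutant allele does not depend on Cre. The libraries can therefore mix cells with different levels of Mov10. With Cre alone the paper found a smaller loss of MOV10 protein than expected. It names partly inaccessible chromatin as a possible explanation. The germline mutant allele was added for that reason, and the paper reports a greater loss of MOV10 protein in Mov10 Deletion animals. Which cells held the remaining Mov10 was not tested here. The sexes of the pooled pups were not given.

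Voltage-gated sodium channels open on depolarization and carry the upstroke of the action potential. Their α subunit forms the pore, and their β subunits are small membrane proteins that set gating and placement. Voltage-gated calcium channels turn depolarization into calcium entry, which drives transmitter release, dendritic signals and gene expression. Their pore is the α1 subunit: the Cav1 (L-type) and Cav2 (P/Q-, N- and R-type) classes open at high voltage and depend on α2δ and β subunits for surface delivery, and the Cav3 (T-type) class opens near rest.

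Library depth was 71400300 to 86207971 estimated counts. Mov10 itself had 200.1, 163.1 and 149 estimated counts in Mov10 Deletion libraries, against 414, 359 and 369.1 in WT libraries, a log2 fold change of -1.11 ± 0.10 (SE, adjusted p = 0.00115). Every log2 fold change below is Mov10 Deletion over WT from limma-trend with 2 RUVs factors (estimated axes of unwanted variation), and every adjusted p is Benjamini-Hochberg over all 16745 genes tested. CPM scales each count to its library's TMM-adjusted total, TPM also takes the length of transcripts into account, and "called" means an adjusted p under 0.05. Of all tested genes, 12.6% were called higher and 12.1% lower. In 20.4% of them all Mov10 Deletion libraries lay above all WT libraries in CPM, and in 21.2% all lay below. For 12 of the channel genes tested all Mov10 Deletion libraries lay above, and for 4 all lay below.

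Of the 32 genes, 30 passed the filter on low counts, 11 were called higher, 1 was called lower and 18 were not called. The higher ones were 8 calcium α1 genes, the sodium α genes Scn8a and Scn9a, and the sodium β gene Scn2b, and the lower one was the sodium β gene Scn3b. The median log2 fold change was 0.09 over the 30 genes and 0.01 over all tested genes. Without the 2 factors, limma-trend called 8 of the 30 higher and 0 lower, beside 11% and 9.96% of all genes, and 5 were lower at an unadjusted p under 0.05. edgeR without factors gave the same numbers of calls, and DESeq2 called 12 higher and 0 lower. Scn10a and Scn4a, the α subunits of nociceptor and skeletal muscle channels, had too few counts to test. Scn10a had 1, 1 and 1 counts in Mov10 Deletion libraries, against 2, 0 and 0 in WT libraries. Scn4a had 4, 5 and 7 counts in Mov10 Deletion libraries, against 8, 10 and 21 in WT libraries. In bulk tissue, fewer cells of a type and less RNA per cell cannot be told apart.

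**Figure D1:**
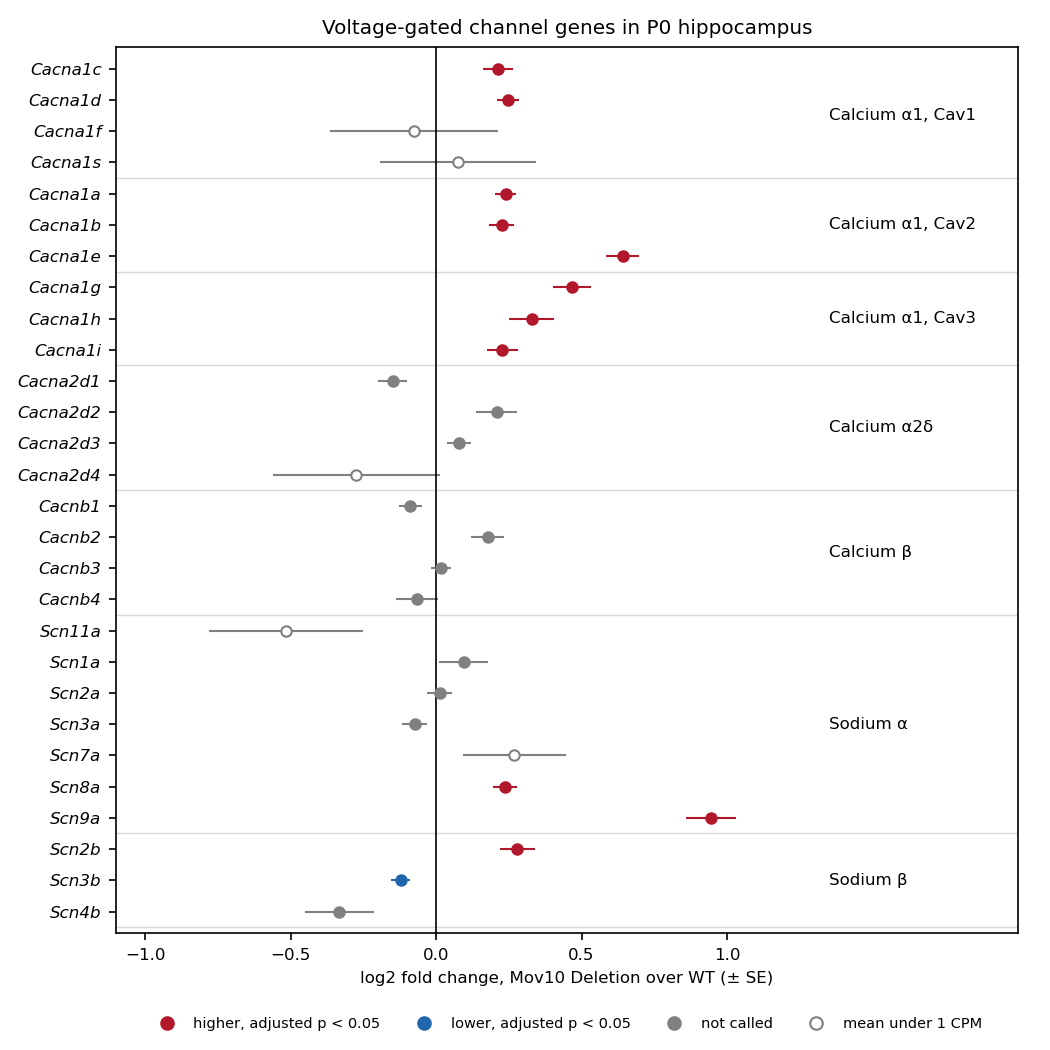
Log2 fold change with its SE (Mov10 Deletion over WT) for 28 of the channel genes tested, grouped by subunit type. Red marks genes called higher, blue the 1 called lower, grey those not called, and open circles genes with a mean under 1 CPM. The 8 abundant α1 genes lie at 0.21 to 0.64.

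Several of these genes hold pairs of alternative exons of equal length, of which a messenger RNA keeps 1. Cacna1d holds 3 such pairs. The one printed here was chosen after the values were seen, because its shares did not overlap between the genotypes, and the values of all 3 are given after the gene levels. Capitals mark the bases that differ between the copies. The pair is 104 bases long and encodes the last membrane segment of the first channel domain. The copies lie on the minus strand of chromosome 14 in GRCm39, at chr14:29893913-29894016 (upstream) and chr14:29893253-29893356 (downstream), and both are coding exons:
Cacna1d upstream copy: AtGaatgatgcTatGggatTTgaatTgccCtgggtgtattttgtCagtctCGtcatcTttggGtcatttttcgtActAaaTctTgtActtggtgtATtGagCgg
Cacna1d downstream copy: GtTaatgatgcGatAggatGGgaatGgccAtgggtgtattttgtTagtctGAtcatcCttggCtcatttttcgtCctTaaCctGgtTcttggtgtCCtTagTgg
The copies differ at 22 of 104 bases.

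The pore-forming α1 genes were the channel type with the most calls: 8 of 10 were called higher, with a median log2 fold change of 0.23. None was lower at an unadjusted p under 0.05 by limma-trend, edgeR or DESeq2. The other 2, Cacna1f and Cacna1s, had a mean under 1 CPM. Among tested genes averaging 40 CPM or more, a bound each of the 8 passed, 11.6% were called higher. Among genes of at least 50000 bases from start to end, which each of the 8 also passed, 17.9% were. Both bounds were chosen after the members' values were seen. Without the factors 6 of the 8 were called, by limma-trend as by edgeR, and DESeq2 called all 8. All 8 were called in each of the 6 fits that left out 1 library.

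Cav2 channels include those that trigger transmitter release at nerve terminals. Cacna1e, the R-type pore, rose most of the calcium channel genes: 242.1, 288.1 and 304 CPM in Mov10 Deletion libraries, against 170, 190.2 and 186.4 CPM in WT libraries. The groups did not overlap, and the log2 fold change was 0.64 ± 0.056 (SE, adjusted p = 0.00115), or 1.56-fold. Cacna1a, the P/Q-type pore, had 119.3, 134.1 and 134.6 CPM in Mov10 Deletion libraries, against 110.9, 110 and 107.1 CPM in WT libraries (0.24 ± 0.036, adjusted p = 0.00457). Cacna1b, the N-type pore, had 152.4, 177.7 and 176.9 CPM in Mov10 Deletion libraries, against 150.5, 146.6 and 124.9 CPM in WT libraries (0.23 ± 0.044, adjusted p = 0.0109). The lowest Mov10 Deletion library of Cacna1b was close to the highest WT library.

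Cav3 channels generate low-threshold calcium currents and burst firing. Cacna1g had 92.36, 99.94 and 113.7 CPM in Mov10 Deletion libraries, against 78.58, 69.88 and 68.9 CPM in WT libraries, a log2 fold change of 0.47 ± 0.065 (adjusted p = 0.00352). Cacna1h had 188.2, 221.7 and 205.9 CPM in Mov10 Deletion libraries, against 174.3, 144.5 and 183 CPM in WT libraries (0.33 ± 0.077, adjusted p = 0.0204). Cacna1i, the third T-type pore, had 46.73, 53.17 and 56.31 CPM in Mov10 Deletion libraries, against 49.2, 41.88 and 37.15 CPM in WT libraries (0.23 ± 0.052, adjusted p = 0.0187). The first 2 genes did not overlap between the genotypes. For Cacna1i WT replicate 1 lay above Mov10 Deletion replicate 1, and without the factors its adjusted p was 0.0633 (0.00109 to 0.269 over 19 alternatives).

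Cav1 channels couple activity to gene expression. Cacna1c, the main L-type pore of brain and heart, had 212.4, 243.3 and 266 CPM in Mov10 Deletion libraries, against 204.8, 209.7 and 217.5 CPM in WT libraries (0.21 ± 0.052, adjusted p = 0.0232). Its groups overlapped, and without the factors its adjusted p was 0.0935 (9.42e-05 to 0.0977 over 19 alternatives). Cacna1d, an L-type pore that opens at lower voltage, had 95.1, 102.9 and 105.4 CPM in Mov10 Deletion libraries, against 84.99, 85.36 and 87.56 CPM in WT libraries (0.25 ± 0.037, adjusted p = 0.00451). It was called in each of 19 alternative fits, as was Cacna1e. The retinal Cacna1f and the skeletal muscle Cacna1s had log2 fold changes of -0.08 ± 0.29 and 0.08 ± 0.27 (adjusted p = 0.87 and 0.861), at 12 to 32 and 22 to 27 counts a library.

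**Figure D2:**
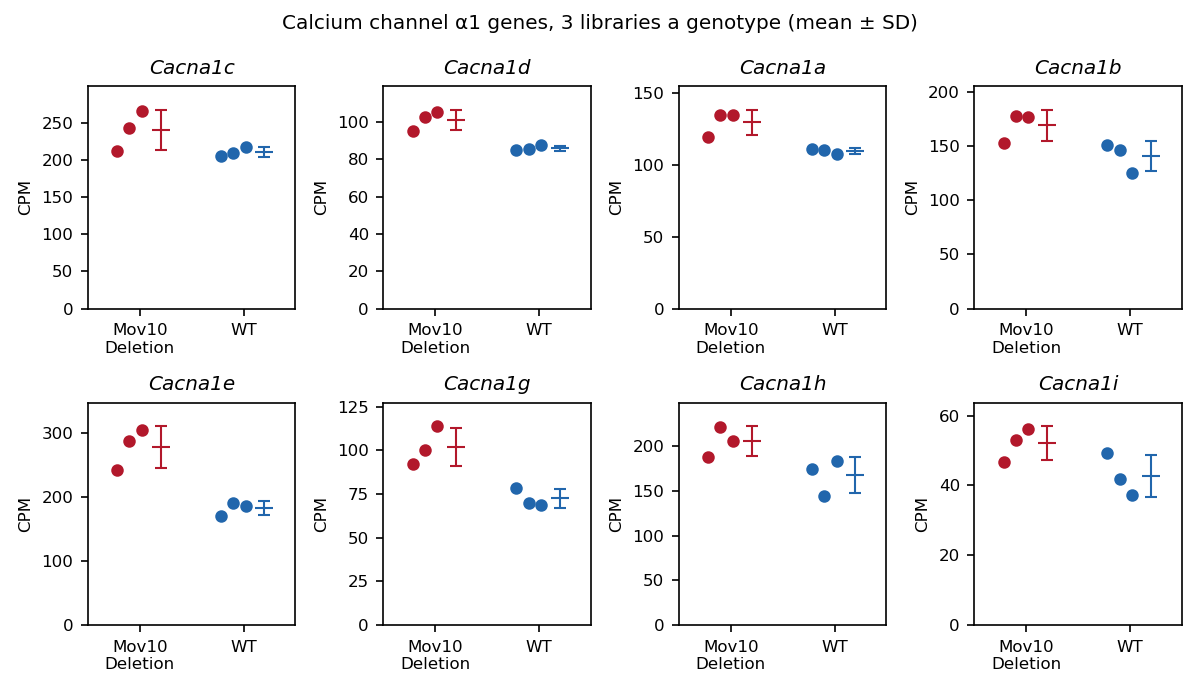
CPM of the 8 abundant calcium channel α1 genes in each library (points) with mean ± SD, Mov10 Deletion in red and WT in blue, 3 libraries each. In 6 of the 8 panels every Mov10 Deletion point is above every WT point, and Cacna1c and Cacna1i are the 2 with overlap.

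The partner subunits of the pore had 0 of 4 α2δ genes and 0 of 4 β genes called by limma-trend. At an unadjusted p under 0.05 there were 2 α2δ genes, 1 in each direction, and 1 β gene. edgeR with factors also called 0, and DESeq2 called 1 α2δ gene higher. These counts of 0 moved with single libraries. Of the 6 fits that left out 1 library, Cacna2d2 was called higher in 4, those without Mov10 Deletion replicate 1 or 2 or WT replicate 1 or 3. Cacna2d1 was called lower in 3, without Mov10 Deletion replicate 2 or 3 or WT replicate 1. Cacnb2 was called higher in 2, without Mov10 Deletion replicate 2 or WT replicate 3, and Cacnb1 lower in 1, without Mov10 Deletion replicate 2. Over 19 alternatives Cacna2d2 was called in 8, Cacna2d1 in 5, Cacnb2 in 4 and Cacnb1 in 1. The difference from the α1 genes was not itself tested. The α2δ subunits carry the pore to the membrane, and Cacna2d1 and Cacna2d2 are the gabapentin-binding ones. Cacna2d1 had 51.31, 60.85 and 65.07 CPM in Mov10 Deletion libraries, against 61.94, 66.83 and 78.75 CPM in WT libraries (-0.15 ± 0.049, adjusted p = 0.0591). Cacna2d2 had 84.14, 91.02 and 106 CPM in Mov10 Deletion libraries, against 85.31, 77.27 and 78.26 CPM in WT libraries (0.21 ± 0.071, adjusted p = 0.0671). Both had overlapping groups. Cacna2d3 was at 0.08 ± 0.042 (adjusted p = 0.207), with all Mov10 Deletion libraries above WT but by little: 69.89 ± 2.36 CPM in Mov10 Deletion libraries, against 66.23 ± 0.526 CPM in WT libraries (SD, n = 3 each). Cacna2d4, mainly retinal, was under 1 CPM, at -0.27 ± 0.29 (adjusted p = 0.514).

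The β subunits bind the inner side of the pore and set its surface level. Cacnb3 was the most abundant calcium β gene, and its log2 fold change was 0.02 ± 0.033 (adjusted p = 0.737). Cacnb1 and Cacnb4 had log2 fold changes of -0.09 ± 0.041 and -0.07 ± 0.073 (adjusted p = 0.151 and 0.54). Cacnb2 had 15.75, 15.29 and 16.21 CPM in Mov10 Deletion libraries, against 14.09, 13.69 and 14 CPM in WT libraries (0.18 ± 0.058, adjusted p = 0.0603). Its groups did not overlap, yet it missed the threshold.

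Of the 10 sodium α genes, 8 were tested, and 2 rose. None was called lower by limma-trend, edgeR or DESeq2, and 1 was lower at an unadjusted p under 0.05 in limma-trend. Scn9a, an α subunit known mainly from sensory neurons, had the largest change of any channel gene called: 13.56, 16.81 and 15.11 CPM in Mov10 Deletion libraries, against 8.841, 8.036 and 4.986 CPM in WT libraries. Its log2 fold change was 0.95 ± 0.087 (adjusted p = 0.00125), or 1.93-fold, and the groups did not overlap. Scn8a, the α subunit of the axon initial segment and nodes, had 100.1, 103.2 and 104.3 CPM in Mov10 Deletion libraries, against 84.84, 90.39 and 87.45 CPM in WT libraries (0.24 ± 0.04, adjusted p = 0.00677). Both were called in 18 of 19 alternative fits. The other 2 main brain α genes of the newborn, Scn2a and Scn3a, had log2 fold changes of 0.01 ± 0.044 and -0.07 ± 0.043 (adjusted p = 0.865 and 0.246). Scn2a had 153.6, 172.6 and 157.7 CPM in Mov10 Deletion libraries, against 164.6, 162.1 and 141.8 CPM in WT libraries. Scn3a had 114, 119.3 and 126.7 CPM in Mov10 Deletion libraries, against 129.7, 122.8 and 125.7 CPM in WT libraries. Scn1a, mainly a channel of inhibitory neurons later in life, was at 20.59 ± 2.68 CPM in Mov10 Deletion libraries, against 18.9 ± 1.25 CPM in WT libraries (SD, n = 3 each, adjusted p = 0.437).

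Scn9a lies in a cluster of sodium α genes on chromosome 2 (GRCm39, 65287462 to 66615367), with Scn3a, Scn2a, Scn1a and Scn7a. Of these 5 genes, only Scn9a was called. Scn7a, an atypical member that senses sodium, was at 0.27 ± 0.18 with about 1 CPM (adjusted p = 0.298). The sensory Scn11a, which lies on chromosome 9 with Scn10a, was below 1 CPM, with all Mov10 Deletion libraries below WT. It had 21, 18 and 14 counts in Mov10 Deletion libraries, against 24, 28 and 38 in WT libraries (-0.52 ± 0.27, adjusted p = 0.189). The family members are similar in sequence, so reads could be split among them by the quantification.

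Of the 4 sodium β genes, Scn2b was called higher and Scn3b lower. Scn2b had 14.73, 15.53 and 14.51 CPM in Mov10 Deletion libraries, against 14.23, 11.27 and 9.08 CPM in WT libraries (0.28 ± 0.06, adjusted p = 0.015). The lowest Mov10 Deletion library was 14.51 CPM and the highest WT library 14.23 CPM. Without the factors its adjusted p was 0.0619 (0.00118 to 0.219 over 19 alternatives), and leaving out WT replicate 2 or 3 ended the call. Scn3b, the most abundant sodium β gene, had 241.1, 263.4 and 251.4 CPM in Mov10 Deletion libraries, against 278.5, 273 and 266.6 CPM in WT libraries (-0.12 ± 0.034, adjusted p = 0.0361). The groups did not overlap, but the call was lost without the factors (adjusted p = 0.0965) and without WT replicate 1 or 2, with 0.00115 to 0.2 over 19 alternatives. It was called in 8 of 19 alternative fits. Scn4b, the neighbour of Scn2b on chromosome 9, was at -0.33 ± 0.12 with 145, 150 and 134 counts in Mov10 Deletion libraries, against 194, 189 and 191 counts in WT libraries (adjusted p = 0.0783).

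**Figure D3:**
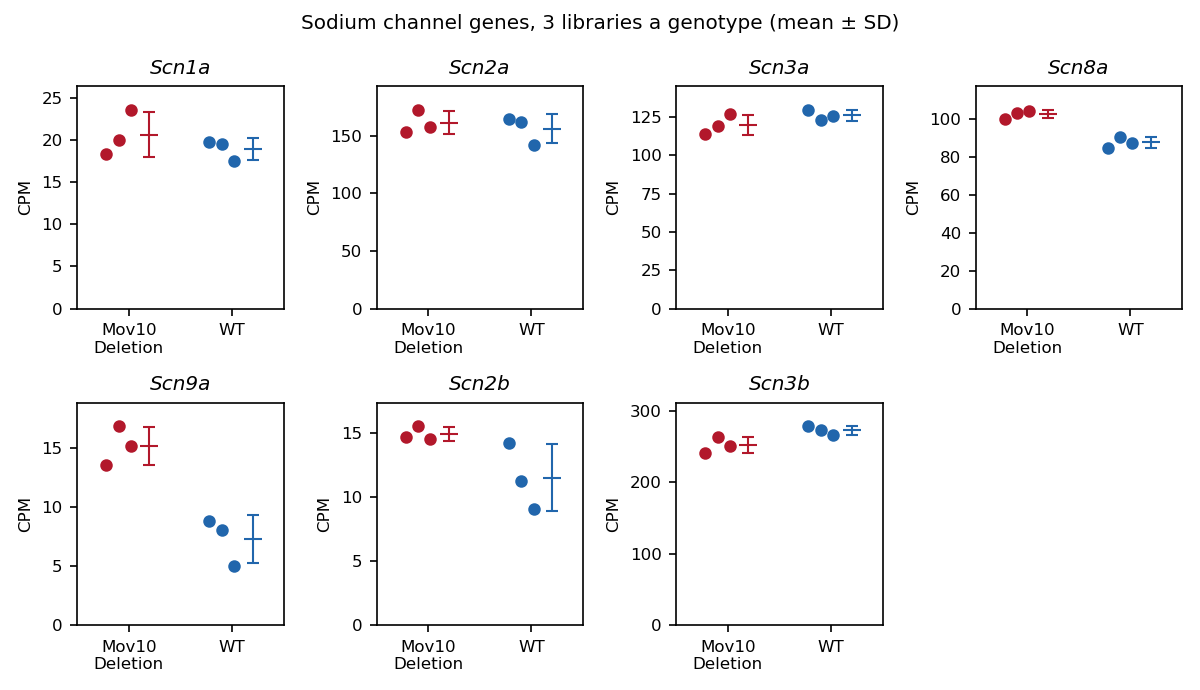
CPM of 7 sodium channel genes in each library (points) with mean ± SD, Mov10 Deletion in red and WT in blue, 3 libraries each. Scn8a, Scn9a and Scn2b lie higher in Mov10 Deletion, and Scn3b lower.

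TPM allows levels of genes to be compared. The calcium α1 genes summed to 351.6, 395 and 423.9 TPM in Mov10 Deletion libraries, against 327.1, 312.6 and 304.7 TPM in WT libraries. The Mov10 Deletion mean was 1.24 times the WT mean, and the groups did not overlap. The sums for sodium α, sodium β, α2δ and calcium β were 1.04, 0.945, 1.05 and 1.03 times WT. Within the calcium α1 sum, Cacna1h was the largest part at 22.3% ± 1.07 in Mov10 Deletion libraries, against 23.6% ± 0.772 in WT libraries (SD, n = 3 each). Sums and shares hold every transcript of a gene, also those without a coding sequence, so they do not rank coding messages. Cacna1h-203, which keeps an intron and has no coding sequence, took 28.1% to 30.6% of Cacna1h TPM in Mov10 Deletion libraries. In WT libraries it took 30.7% to 37.2%. The share of Cacna1e was 12.2% ± 0.545 in Mov10 Deletion libraries, against 9.96% ± 0.871 in WT libraries. The share of Cacna1g was 12.6% ± 1.01 in Mov10 Deletion libraries, against 10.4% ± 0.449 in WT libraries. Both had no overlap between groups. The shares of Cacna1c and Cacna1a also had none but were lower in Mov10 Deletion. Cacna1c held 10.9% ± 0.43 in Mov10 Deletion libraries, against 12.1% ± 0.61 in WT libraries, and Cacna1a held 18.2% ± 0.386 in Mov10 Deletion libraries, against 19.1% ± 0.417 in WT libraries. Shares of 1 sum move against each other.

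In the sodium α sum, Scn2a held 41.7% ± 1.84 in Mov10 Deletion libraries, against 41.7% ± 1.70 in WT libraries. Scn3a, the embryonic α subunit, held 32.2% ± 1.13 in Mov10 Deletion libraries, against 36.3% ± 1.17 in WT libraries, with no overlap. Scn8a, which takes a larger part later in life, held 18.1% ± 0.793 in Mov10 Deletion libraries, against 15.5% ± 1.27 in WT libraries, with no overlap. Scn9a held 2.84% ± 0.208 in Mov10 Deletion libraries, against 1.43% ± 0.311 in WT libraries. In the α2δ sum, Cacna2d1 held 27.7% ± 1.18 in Mov10 Deletion libraries, against 31.9% ± 2.20 in WT libraries, with no overlap.

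**Figure D4:**
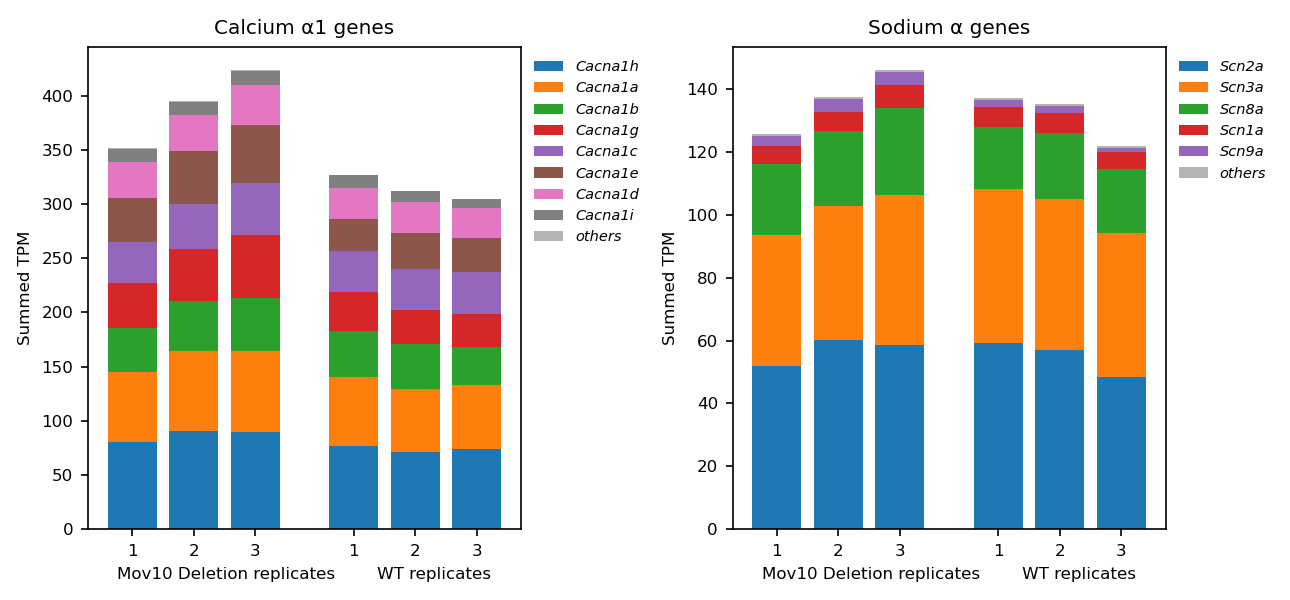
Summed TPM of the calcium α1 genes (left) and the sodium α genes (right) in each library, stacked by gene, with the 3 Mov10 Deletion libraries left of the 3 WT libraries. The calcium sum is 351.6 to 423.9 TPM in Mov10 Deletion and 304.7 to 327.1 TPM in WT, and the sodium sums overlap.

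Transcript usage was not used to choose the genes. It was tested as each transcript's log2 fold change against the other transcripts of its gene, which can differ from its change in share. It was called at 5 of the 23 channel genes with 2 or more transcripts tested, Cacna1d, Cacna1a, Cacnb1, Cacna2d3 and Cacnb3, against 7.36% of all 10338 genes so tested, over which its p-values were adjusted. Adjusted p was 1.02e-05 for Cacna1d, 0.00892 for Cacna1a, 0.0111 for Cacnb1, 0.031 for Cacna2d3 and 0.048 for Cacnb3. At Cacna1d the lead came from 2 rare protein-coding transcripts: Cacna1d-216 had no counts in Mov10 Deletion libraries, against 77.2, 22.5 and 88.3 in WT libraries, and Cacna1d-204 had 17.9, 0 and 0 counts in Mov10 Deletion libraries, against 84.2, 129.7 and 25.3 in WT libraries. Cacna1d-218, also protein-coding, had 811, 759.6 and 1062.5 counts in Mov10 Deletion libraries, against 463.2, 489.5 and 545.5 in WT libraries. With a filter of 1 CPM, which removes the rare transcripts, the adjusted p of Cacna1d was 0.0639.

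The usage calls were sensitive to the fit and to single libraries. On simulated data the usage test without weights, the kind that gave these calls, returned more false calls than its threshold allows. With weights that lower the part of rare transcripts, Cacna1d kept its call (adjusted p = 0.0205) and Cacna1a did not (adjusted p = 0.0947). Over 11 alternatives the adjusted p was 2.56e-06 to 0.305 for Cacna1d and 0.00181 to 0.295 for Cacna1a. Leaving out WT replicate 2 ended all 5 calls, and Cacna1c was then the only channel gene called. Cacna1d and Cacna2d3 kept their calls with any other single library left out. Cacna2d3 lost its call without the factors (adjusted p = 0.162) and kept it with the weights (adjusted p = 0.00986). Its test had 2 transcripts. The rare one, Cacna2d3-205, had 0, 32.7 and 6.7 counts in Mov10 Deletion libraries, against 53.3, 42.4 and 91 in WT libraries. The lead at Cacna1a was the rare Cacna1a-202, at 0% to 0.581% of its TPM in Mov10 Deletion libraries and 0.683% to 0.743% in WT libraries. Cacna1a also lost its call without Mov10 Deletion replicate 1, and Cacnb1 and Cacnb3 lost theirs in all 6 fits that left out a library. At Cacnb3, the protein-coding Cacnb3-206 had 1297.9, 1621.1 and 1317.7 counts in Mov10 Deletion libraries, against 1815.7, 2017.6 and 2574.2 in WT libraries, or 8.68%, 10.9% and 9.41% of the gene's TPM in Mov10 Deletion libraries and 10.9%, 14.4% and 18.6% in WT libraries. The groups do not overlap in counts but meet in shares, at Mov10 Deletion replicate 2 and WT replicate 1.

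The choice between exon copies was then set out for 5 genes as the upstream copy's share of the TPM of transcripts that hold either copy. It has no test, since it rests on transcripts already divided among many. Scn8a, at its 92-base pair, had 35.7% ± 4.58 in Mov10 Deletion libraries, against 38.1% ± 3.37 in WT libraries (SD, n = 3 each). The 104-base Cacna1d pair had 57.36%, 49.44% and 58.18% of the upstream copy in Mov10 Deletion libraries, against 63.73%, 63.32% and 60.3% in WT libraries. The groups did not overlap, and the difference was -7.46 percentage points, or -6.28 with estimated counts in place of TPM. The upstream copy had 8.43, 8.48 and 9.8 TPM in Mov10 Deletion libraries, against 9.03, 8.94 and 8.46 in WT libraries, with overlap. The downstream copy had 6.27, 8.67 and 7.04 TPM in Mov10 Deletion libraries, against 5.14, 5.18 and 5.57 in WT libraries. The upstream transcripts include Cacna1d-208, annotated for nonsense-mediated decay, and the downstream ones include Cacna1d-218. The other 2 Cacna1d pairs, of 84 and 60 bases, differed by 0.51 and -0.07 points, less than the SD within either genotype. Scn3a had 10.7% ± 0.93 in Mov10 Deletion libraries, against 15.1% ± 2.1 in WT libraries, but with estimated counts the difference was -0.135 points. Its upstream copy rests on 1 short transcript, Scn3a-202, of 365 bases and 20.5 to 40.9 counts a library. The Cacna1c and Cacna1a pairs differed by 1.4 and 0.18 points, and the downstream copy of Cacna1a also rests on 1 short transcript, Cacna1a-210, of 549 bases.

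**Figure D5:**
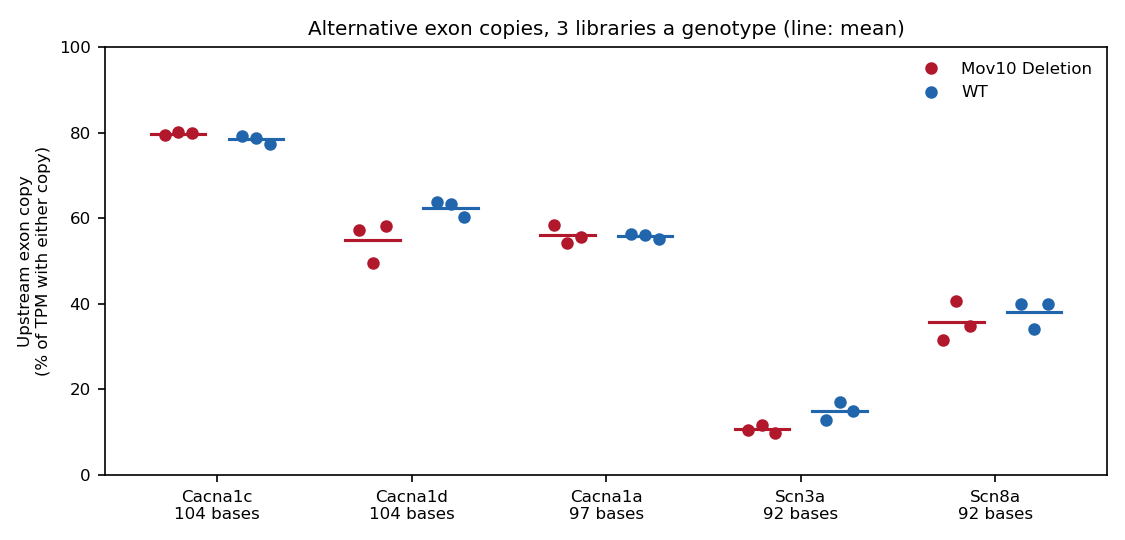
Share of the upstream exon copy (percent of TPM of transcripts with either copy) in each library for the longest pair of 5 genes, Mov10 Deletion in red left of WT in blue, with the mean as a line. Only the Cacna1d, Cacna1c and Scn3a pairs have groups that do not overlap.

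Genes that work with these channels were counted from 2 lists. Of 14 sodium channel partners, 5 were called higher and 1 lower, beside 12.6% and 12.1% of all tested genes. Ank3, the ankyrin that anchors sodium channels at the axon initial segment, was at 0.25 ± 0.047 (adjusted p = 0.00974), and the spectrin Sptbn4 at 0.19 ± 0.045 (adjusted p = 0.0223). The groups of Sptbn4 overlapped, and without the factors its adjusted p was 0.13. Fgf13, a channel-binding fibroblast growth factor homolog, was at 0.24 ± 0.065 (adjusted p = 0.0324). The sodium leak channel gene Nalcn was at 0.19 ± 0.039 (adjusted p = 0.0126) and its scaffold Unc80 at 0.42 ± 0.054 (adjusted p = 0.00283). Nedd4l, a ubiquitin ligase that removes sodium channels, fell by 0.15 on the log2 scale (adjusted p = 0.0222). The other 8 were not called.

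Of 21 calcium channel partners, 19 were tested, 4 were called higher and 3 lower, beside 12.6% and 12.1% of all tested genes. Tspoap1 and Rimbp2, RIM-binding proteins that tie calcium channels to release sites, were at 0.37 ± 0.04 and 0.24 ± 0.052 (adjusted p = 0.00183 and 0.0147). Cabp1, a calmodulin-like channel regulator, was at 0.30 ± 0.055 (adjusted p = 0.00885), and Stac3, an adaptor of the muscle channel, at 0.64 ± 0.17 with about 1 CPM (adjusted p = 0.0304). Cacng2 and Cacng7, of a family whose brain members mostly serve AMPA receptors, were at -0.17 ± 0.041 and -0.13 ± 0.035 (adjusted p = 0.0219 and 0.0312). Cacng1, the skeletal muscle γ subunit, was at -0.90 ± 0.20 and near 1 CPM (adjusted p = 0.0179). Without the factors the calls of Stac3, whose groups overlapped, and Cacng2 were lost (adjusted p = 0.0937 and 0.0969).

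Markers of cell types were counted in the same way, beside the 12.6% of all tested genes called higher and 12.1% called lower. Of 11 pan-neuronal markers 3 were called higher (Rbfox3, Snap25 and Syn1) and 1 lower (Elavl3), with sums of 4412 to 4709 TPM in Mov10 Deletion and 4254 to 4531 TPM in WT. Of 12 excitatory neuron markers 2 were called higher (Zbtb20 and Nrgn), at 1485 to 1592 TPM in Mov10 Deletion and 1480 to 1515 TPM in WT. Of 10 progenitor and proliferation markers 6 were called lower, with the smallest p at Cenpf, Ccnb1 and Top2a, and 1 higher, at 558.8 to 626.1 TPM in Mov10 Deletion and 576.5 to 601.2 TPM in WT. Of 10 astrocyte markers 3 were called higher (Aqp4, Gfap and S100b), at 826.9 to 908.5 TPM in Mov10 Deletion and 697.3 to 816.4 TPM in WT. No marker of any list was at 0 in all libraries, and the tissue's excitatory neuron markers were all tested. The part of these shifts in the channel results was not tested.

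Of 9 smooth and skeletal muscle markers 2 were called higher, at 8.13 to 10.4 TPM in Mov10 Deletion and 7.07 to 8.14 TPM in WT. The choroid plexus and meninges markers summed to 26.0 to 183.1 TPM in Mov10 Deletion and 52.3 to 66.3 TPM in WT, with the highest sum in Mov10 Deletion replicate 1. Without that library, 8 α1 genes were still called higher. The interneuron, Cajal-Retzius, oligodendrocyte, endothelial, microglial and erythroid lists had 2, 1, 1, 2, 0 and 0 genes called higher and 1, 0, 1, 2, 0 and 3 called lower.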

How the data were processed

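Hippocampal RNA of P0 pups was made into poly(A) libraries with a stranded kit and read as 150-base reads. The authors deposited, for each library, transcript-level estimated counts and TPM from Salmon 1.4.0 with a GRCm39 decoy. The release of the annotation and the strand setting are not given in the sources used here. Estimated counts were summed per gene through GENCODE M39 (137570 of 139225 transcripts matched, leaving out 0.589 to 0.6% of counts), and filtered at 0.25 CPM in at least 3 libraries. They were then scaled by TMM, put on log2 CPM with a prior count of 2 and fitted with limma-trend (limma 3.58.1 and edgeR 4.0.16 in R 4.3.3) with genotype and 2 RUVs factors, which left 2 residual degrees of freedom. TPM as deposited gave levels and shares, with sums over transcripts. Transcript usage was tested with limma diffSplice and the same factors. The functions were tested on simulated data, where the usage test without weights returned more false calls than its threshold allows. Alternatives were edgeR's quasi-likelihood test and DESeq2 1.42.0 on counts rounded to whole numbers, other normalizations, filters and priors, other numbers of factors, and each library left out.

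Each library was a pool of pups, whose litters are not stated, and p-values measure only the spread left between libraries after the factors. The replicate numbers share no stated litter or day. The channel genes named are the members of the symbol rule, called or not, except for some values that are not reported here but stay in the counts, and for the partner lists every called member. The members and lists were chosen with earlier results of these data known.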

Additional observations from a re-analysis of the deposited data

How the results depend on the processing

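Results are compared with those of the main analysis for the setting named. Of the 12 channel genes called, Cacna1d and Cacna1e were called in all 19 alternatives. Cacna1a, Cacna1b, Cacna1g, Cacna1h, Scn8a and Scn9a were lost only with no filter on low counts, a setting that calls 445 genes higher and 480 lower over 29469 genes and leaves 2 channel genes called higher, both α1 genes. Cacna1c was called in 15, Cacna1i in 14, Scn2b in 12 and Scn3b in 8 of the 19. The number of channel genes called lower was 1 and became 0 with no factors, with edgeR or DESeq2 without factors, with upper-quartile normalization, with no filter, with a 1 CPM filter and with length-scaled TPM, and 4 with 2 RUVr factors. Leaving out 1 library gave 10 to 13 channel genes higher, 0 to 3 lower, and 8 α1 genes higher each time. The counts over all genes were 1656 to 2809 higher and 1147 to 2988 lower, and without WT replicate 2 the split was 59.1% higher (upper-quartile normalization gave 60.9%, against 50.9% in the main analysis). Transcript usage called 5 channel genes, and 3 with no factors, 2 with a 1 CPM filter, 3 with a replicate block and 1 to 6 with 1 library left out. With voom weights, an alternative added after the data were seen, 5 were called with factors and 4 without. The 5 with factors held Cacna1c (adjusted p = 0.04) in place of Cacna1a (adjusted p = 0.0947). With voom weights and no factors Cacnb1 was not called (adjusted p = 0.229).

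The reversed values all belong to members that were not called. Cacna1f was at 0.112 with no factors, 0.132 with 1 RUVs factor, 0.112 with 2 RUVr factors, 0.051 with edgeR without factors, 0.059 with DESeq2, 0.107 with no filter and 0.112 with the replicate block, and at -0.300 to 0.372 with 1 library left out. With 1 library left out, Cacna1s was at -0.070 to 0.160, Cacna2d4 at -0.495 to 0.019, Cacnb3 at -0.006 to 0.063, Cacnb4 at -0.149 to 0.049, Scn1a at -0.018 to 0.174 and Scn2a at -0.045 to 0.084. The cause of these changes was not tested.

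Libraries with the same number in both genotypes showed little shared deviation, with correlations of 0.0114, -0.0711 and 0.0432. The deviations were taken from the mean of only 3 libraries a genotype, so they cannot settle whether the libraries were paired. A fit with the replicate block in place of the factors called 10 channel genes higher, 7 of them α1 genes, and 1 lower, and 1857 and 1568 genes in all. The lower one was Cacna2d1, not called with the factors, and Scn3b was not called. At low counts the depth limits what can be seen, and members under 1 CPM were not resolved.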
